A study of Mus musculus with 4 samples.

Results

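The bacterial families Rikenellaceae and Marinifilaceae hold Alistipes and Odoribacter, minor members of the order Bacteroidales in the faeces of these mice. Members were all rows of the deposited taxon table assigned to either family, summed by genus. The rule took 12 of the 488 taxon rows and 5 of the 316 genera. Alistipes_A_871400 held 6 rows, Odoribacter_865974 and Alistipes_A_871404 held 2 rows each, and Butyricimonas and an unclassified genus of Rikenellaceae held 1 row each. Numeric suffixes are part of the names in the table and separate lineages that share an older genus name.

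Alistipes and Odoribacter are strictly anaerobic, bile-tolerant rods of the gut lumen that live on proteins, peptides and simple sugars. Odoribacter produces short-chain fatty acids including butyrate, which is uncommon among Bacteroidales. As gram-negative bacteria they are enclosed by an outer membrane, which large glycopeptides such as vancomycin cross poorly, and as strict anaerobes they lack the respiration-driven uptake on which neomycin, an aminoglycoside, depends.

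The study followed wild-type C57BL6/J mice, 8 to 12 weeks old, kept under specific-pathogen-free conditions. Mice received 2.5 mg of ampicillin, metronidazole, neomycin, vancomycin or all 4 together (the mix) in 100 µl of phosphate-buffered saline (PBS), and controls received PBS alone. Doses were given 2 times a day for 3 days and 1 more time on day 4, by oral gavage or by intraperitoneal or intravenous injection, so each of the 3 routes had its own injected or gavaged PBS group. Bacterial composition was read from the V4 region of the 16S rRNA gene in stool of day 0 and day 4.

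The table held 107 libraries of day 0 and 91 of day 4, from sequencing runs named ok122 (186 libraries) and SB1 (12, all of day 4). SB1 held 2 oral ampicillin, 2 oral mix, 1 intraperitoneal ampicillin and 1 intraperitoneal mix library, and 3 each of intravenous PBS and vancomycin. It held no oral or intraperitoneal PBS library. In those oral and intraperitoneal comparisons run and antibiotic can therefore not be fully told apart. Antibiotic, route, day and replicate number came from the deposited sample sheets. After 2 pairs of day 4 libraries that agreed within sampling noise were counted as 1 sample each (intraperitoneal vancomycin replicates 1 and 5, intravenous ampicillin replicates 3 and 4), 89 day 4 samples remained in 18 groups of 2 to 6. The median library held 13945 reads, and the extremes were 2 and 153407. On day 4, 4 libraries held under 1000 reads, namely oral mix replicate 2 (556 reads), intraperitoneal neomycin replicate 4 (70 reads), intraperitoneal mix replicate 3 (30 reads) and intravenous mix replicate 5 (65 reads). In those libraries a taxon listed at 0 carries little information. Sample names gave each mouse its own letter and number, but no source said which mice shared a cage. P-values therefore measure the spread between these samples. All values are percent of the reads of a library, so they are relative, and a lower share cannot be told apart from a rise of other taxa.

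At day 0, before treatment, both main genera were present in nearly every deeply read library at about 1% of reads or less. Among the 83 day 0 libraries of at least 1000 reads, Alistipes_A_871400 was found in 81, with a lowest level of 0%, a median of 0.803% and a highest of 4.25% of reads. Odoribacter_865974 was found in 80 of them, with a median of 0.576% and a highest of 3.24%. By mean level they ranked 15 and 16 among the 316 genera. The unclassified Rikenellaceae genus was found in 73 libraries at a median of 0.12%, Alistipes_A_871404 in 14 and Butyricimonas, a butyrate-producing relative of Odoribacter, in 1.

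The genera did not rise and fall strictly together in untreated mice. Spearman's correlation between Alistipes_A_871400 and Odoribacter_865974 was 0.444 over these 83 libraries, whose percentages share a denominator, and Alistipes_A_871400 was the more abundant in 56. Of the 24 day 0 libraries under 1000 reads, 9 listed Alistipes_A_871400 at 0 and 12 listed Odoribacter_865974 at 0, against 2 and 3 of the 83 deeper ones.

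Within Alistipes_A_871400, most reads had no species name. A row without a species rank held 66.7% of the reads of the genus at day 0, and a row with a blank species name held 30.3%. The named rows were minor, with 1.7% for excrementavium, 1.13% for sp002362235 and 0.175% for communis, and finegoldii had no read in these 83 libraries. Within Odoribacter_865974, Odoribacter laneus held 78.4% and Odoribacter splanchnicus 21.6%. In the 16 PBS samples of day 4 the row without a species rank still held 64.6% of Alistipes_A_871400 and Odoribacter laneus 79.2% of its genus, and sp002362235 held 5.53%.

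No member was called at day 0 between mice later given an antibiotic and those later given PBS by the same route, although some groups stood apart. Across all 15 such comparisons limma called 0.0784% of the tests over 85 genera, and none of them was a member. The lowest adjusted p of a member was that of Alistipes_A_871400 in mice later given vancomycin intraperitoneally, at a log2 difference of -3.29 ± 1.22 (SE, adjusted p = 0.0842). Odoribacter_865974 was above the later PBS mice before each of the 5 oral treatments, by 3.45 before neomycin (95% interval 0.85 to 6.05, limma unadjusted p = 0.00973, adjusted 0.57) and by 2.91 before the mix (0.19 to 5.64, adjusted 0.678). No shift was called in the PBS mice themselves, taken over all routes together. Over 16 PBS mice the log2 change from day 0 to day 4 was 0.79 ± 1.86 (SD) for Alistipes_A_871400 and 0.63 ± 2.20 for Odoribacter_865974, with exact sign-flip p of 0.085 and 0.289. In the 13 PBS mice with at least 1000 reads on both days the change of Odoribacter_865974 was -0.01, and 5 mice were higher and 8 lower. Every intravenous PBS mouse had less Odoribacter_865974 at day 4 than at day 0, and the routes were not tested apart.

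All 16 PBS samples of day 4 carried Alistipes_A_871400, Odoribacter_865974 and the unclassified Rikenellaceae genus, and Alistipes_A_871400 was above Odoribacter_865974 in 16 of 16. These samples were the reference for the 15 comparisons of an antibiotic with PBS of the same route. They asked with which drug and by which route of delivery the share of each genus was lower. Levels were compared as log2(percent + 0.01) in 1 limma model over the 95 genera found in 20% or more of the day 4 samples, which understates the change of a genus near 0. Of the 5 member genera, 4 passed that filter and Butyricimonas did not. A call is an adjusted p below 0.05.

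Members fell in most comparisons with ampicillin and the mix, in none with metronidazole, and with neomycin only 1 of them by the oral route. With vancomycin the unclassified Rikenellaceae genus was called lower by every route and Odoribacter_865974 by mouth and by vein. Alistipes_A_871400 was called lower with vancomycin by mouth only, and Alistipes_A_871404 by no route. Alistipes_A_871400 was lower in 7 of 15 comparisons, Odoribacter_865974 in 8, the unclassified Rikenellaceae genus in 10 and Alistipes_A_871404 in 1, and limma called none of them higher in any. These counts stand beside broad losses. By the oral route 55.8% of all tested genera were called with ampicillin, 4.21% with metronidazole, 23.2% with neomycin, 66.3% with vancomycin and 36.8% with the mix. By the intraperitoneal route the shares were 50.5%, 2.11%, 0%, 25.3% and 29.5% in the same order. By the intravenous route they were 42.1%, 2.11%, 1.05%, 42.1% and 43.2%.

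**Figure D1:**
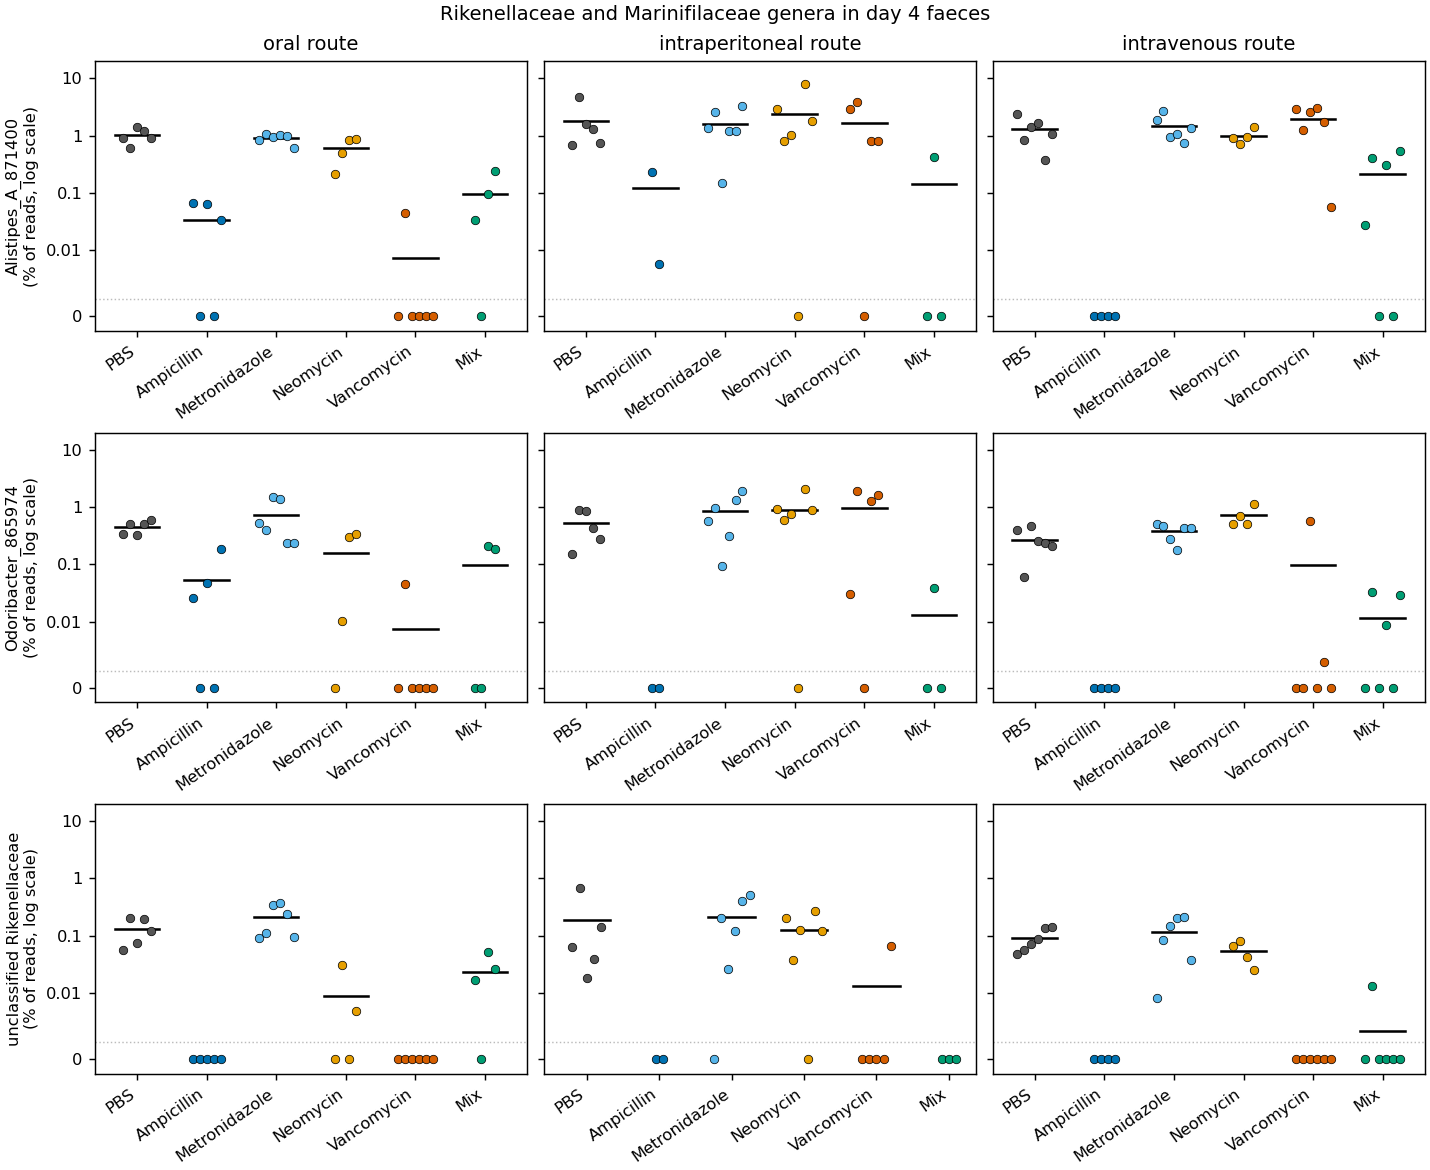
Percent of reads (log scale, with samples listed at 0 drawn below the dotted line) of 3 member genera in every day 4 sample, by route and treatment. Each point is a sample and each black line the group mean. All 4 intravenous ampicillin samples lie at 0 in each row, while 5 of 6 intravenous vancomycin samples keep Alistipes_A_871400 above 1%.

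Oral PBS mice carried Alistipes_A_871400 at 0.919%, 0.6%, 1.44%, 1.21% and 0.918% of reads in replicates 1 to 5. Oral ampicillin mice carried it at 0.0665%, 0%, 0.0642%, 0% and 0.0342%. All 5 ampicillin samples lay below all 5 PBS samples. The log2 difference was -5.03 ± 1.18 (SE, limma adjusted p = 0.000352), and the two-sided exact permutation p was 0.00794, the smallest these group sizes allow (adjusted over the 15 comparisons of the genus, 0.0238).

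Odoribacter_865974 took the same direction with oral ampicillin. It stood at 0.337%, 0.501%, 0.32%, 0.504% and 0.59% in the PBS mice and at 0.0256%, 0%, 0.0481%, 0% and 0.188% in the ampicillin mice, again without overlap. It fell by 3.75 ± 1.11 on the log2 scale (limma adjusted p = 0.0035). The unclassified Rikenellaceae genus was listed at 0 in 5 of 5 ampicillin samples against 0.131% ± 0.0683 (SD, n = 5) with PBS, at least 5.82-fold lower when each library is set at 3 reads.

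The whole phylum went down with them. Bacteroidota held a median of 92.2% of reads in oral PBS mice and 2.12% in oral ampicillin mice. As a share of Bacteroidota reads, Alistipes_A_871400 was 0.787% with ampicillin and 1.21% with PBS, and Odoribacter_865974 2.08% and 0.546%. Those are group means, whereas the test used mean log2 values, which differed by -2.66 and -1.38. Neither difference was called (exact permutation p = 0.278 and 0.421). For Odoribacter_865974, 2 ampicillin samples lay below every PBS sample and 2 above. Replicates 3 and 5 had Odoribacter_865974 at 1.06% and 9% of Bacteroidota, above every PBS sample. In the same 2 libraries taxa from a list of reagent, skin and food bacteria plus unassigned reads made up 89.0% and 96.6% of all reads. With those taxa left out of every library the log2 difference of Odoribacter_865974 was -2.20 and no longer called (limma adjusted p = 0.15).

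Intravenous ampicillin differed from oral ampicillin in the level of the phylum, while the changes of the members were not told apart by route. Alistipes_A_871400, Odoribacter_865974, the unclassified Rikenellaceae genus and Alistipes_A_871404 were each listed at 0 in all 4 samples, which held 3621 to 29766 reads. Intravenous PBS mice carried Alistipes_A_871400 at a lowest level of 0.375%, a median of 1.24% and a highest of 2.37%, and Odoribacter_865974 at 0.0608%, 0.247% and 0.463%. With 3 reads per library as the floor, Alistipes_A_871400 was at least 39.9-fold lower (limma adjusted p = 2.14e-05) and Odoribacter_865974 at least 8.37-fold lower (adjusted p = 0.000596). The floor of the shallowest library, 0.0829%, lay above the lowest PBS value of Odoribacter_865974, so that library alone could not show its loss.

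Here Bacteroidota remained the main phylum. It made up 86.9% to 95.4% of reads in the intravenous ampicillin samples and 88.1% to 94.5% in intravenous PBS samples. The share of Odoribacter_865974 within Bacteroidota went from 0.302% to 0% (exact permutation p = 0.00476, adjusted p = 0.0357), and that of Alistipes_A_871400 from 1.43% to 0% (p = 0.00476, adjusted p = 0.0714, the raw value being the smallest these sizes allow). Of the 13 other Bacteroidales genera tested, 3 were called higher and 5 lower in this comparison. Parabacteroides_B_862066, a gut genus of the family Tannerellaceae, rose from 0.0325% ± 0.0223 (SD, n = 6) to 5.53% ± 5.51 (n = 4), and Phocaeicola_A_858004, of the Bacteroidaceae, from 0.0292% ± 0.0288 to 12.8% ± 18.2. UBA3263 and CAG-873, both Muribaculaceae, had the deepest falls.

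Intraperitoneal ampicillin rested on 2 mice. Alistipes_A_871400 was at 0.235% and 0.00571% in them and at 0.696%, 4.65%, 1.56%, 1.32% and 0.742% in the 5 intraperitoneal PBS mice. Odoribacter_865974 was listed at 0 in both, against 0.149%, 0.877%, 0.846%, 0.434% and 0.279% with PBS, at least 16.5-fold lower (limma adjusted p = 0.00281). Alistipes_A_871400 fell by 4.49 ± 1.57 on the log2 scale (limma adjusted p = 0.0184). Without replicate 2, the lower of the pair and the only one read in run SB1, the log2 difference was -2.50 and not called (adjusted p = 0.33), and with 2 mice the exact test cannot go below 0.0476. Bacteroidota was at 7.99% and 0.29% of reads in the 2 mice, and Alistipes_A_871400 made up 2.47% of Bacteroidota reads against 2.17% with PBS. Alistipes_A_871404, at 0.0347% ± 0.0413 (SD, n = 5) with PBS, was listed at 0 in both mice (limma adjusted p = 0.0382). It was also listed at 0 in 1 of the 5 PBS mice. The floors of 3 reads in the 2 ampicillin libraries were 0.00856% and 0.0542%, the higher one above the PBS mean.

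**Figure D2:**
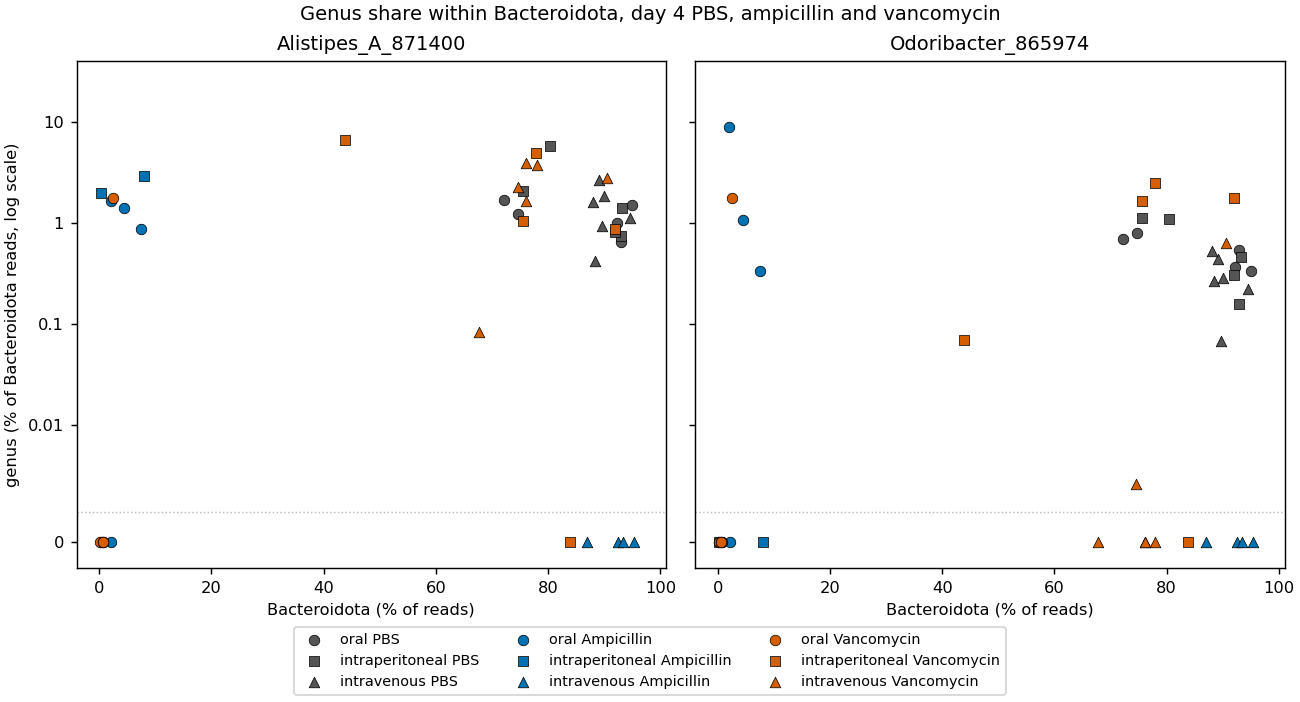
Share of each genus within Bacteroidota reads (log scale, samples at 0 below the dotted line) against the percent of all reads that were Bacteroidota, for day 4 samples given PBS, ampicillin or vancomycin. Blue triangles, the intravenous ampicillin samples, combine 86.9% to 95.4% Bacteroidota with neither genus, whereas oral ampicillin samples (blue circles) have few Bacteroidota of any kind.

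After oral vancomycin both main genera were listed at or near 0% of reads. Alistipes_A_871400 was listed at 0 in 5 of 6 samples and stood at 0.0445% in replicate 2, and Odoribacter_865974 had the same values, a single library holding the only reads of either. Neither overlapped with PBS. Alistipes_A_871400 fell by 6.22 ± 1.13 on the log2 scale (limma adjusted p = 3.01e-06) and the log2 difference of Odoribacter_865974 was -5.08 ± 1.06 (adjusted p = 2.74e-05). The unclassified Rikenellaceae genus was listed at 0 in 6 of 6 samples (limma adjusted p = 1.17e-05). At 3 reads per library this is a level at least 1.81-fold lower, and the highest floor, 0.261%, lay above every PBS sample. Bacteroidota as a whole ranged from 0% to 2.49% of reads in these mice, and 11 of the 13 other Bacteroidales genera were called lower. In the 5 samples with Bacteroidota reads, Alistipes_A_871400 made up 0.357% of those reads on average, against 1.21% with PBS. Odoribacter_865974 made up 0.357% against 0.546%. Neither difference was called (exact permutation p = 0.0476 for each, adjusted p = 0.179 and 0.0893). For each genus 4 samples lay below every PBS sample and 1 above. The unclassified Rikenellaceae genus was at 0% against 0.159% (exact permutation adjusted p = 0.0198).

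By vein vancomycin was not followed by a called change of Alistipes_A_871400 as a genus. The level had a lowest value of 0.0562%, a median of 2.12% and a highest of 2.99%, against 0.375%, 1.24% and 2.37% with PBS, and 3 of 6 samples exceeded every PBS sample. The log2 difference was 0.11 with a 95% interval from -2.04 to 2.27 (limma adjusted p = 0.945). Odoribacter_865974 was listed at 0 in 4 of 6 samples and at 0.00196% in replicate 5, but replicate 3 carried 0.571%, above every PBS sample. Odoribacter_865974 fell by 3.57 ± 1.01 on the log2 scale (limma adjusted p = 0.00273, exact permutation p = 0.0152). On the percent scale the exact permutation p was 0.167 (adjusted 0.25). The call was lost at a pseudocount of 0.1% (log2 difference -1.32, limma adjusted p = 0.051) and against each mouse's day 0 level (-3.27, adjusted p = 0.12). Within run ok122, which held replicate 3, the log2 difference was -2.62 (adjusted p = 0.17), and within run SB1 it was -4.52 (adjusted p = 0.0114). The unclassified Rikenellaceae genus was at 0 in 6 of 6 samples, at least 5.27-fold below its 0.0902% ± 0.0395 (SD, n = 6) with PBS.

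Within that genus total the rows of Alistipes_A_871400 moved in opposite directions. The row sp002362235 rose, and the rows that make up most of the genus in PBS mice fell. In intravenous PBS samples sp002362235 had a lowest level of 0%, a median of 0.0225% and a highest of 0.586% of reads. In intravenous vancomycin samples it had a lowest of 0.0562%, a median of 1.46% and a highest of 2.99%. Of the 6 vancomycin samples, 4 exceeded every PBS sample and the other two lay within the PBS range. The log2 difference was 4.54 ± 0.99 (SE, limma over 133 table rows, adjusted p = 0.000108, with 50.4% of the rows called), and the exact permutation p was 0.00866.

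The row without a species rank went from 0.955% to 0.363% of reads on average and fell by 4.35 ± 1.05 on the log2 scale (limma adjusted p = 0.000392). It was listed at 0 in 3 of 6 vancomycin samples, and replicate 3, with 2.08%, was the exception. The row with a blank species name, at 0.183% with PBS, was listed at 0 in all 6 (adjusted p = 0.000996), as was excrementavium (adjusted p = 0.024). Row sp002362235 held 80.3% of the summed reads of the genus after vancomycin and 8.67% with PBS. The log2 ratio of sp002362235 to the other rows of the genus was 4.35 after vancomycin and -4.80 with PBS (exact permutation p = 0.00433, adjusted over 15 comparisons 0.0238). That adjusted value draws on low p-values of comparisons whose ratio the added 0.01% sets, such as intravenous ampicillin. It is therefore not read as a call. Row sp002362235 and its test were chosen once the values were known.

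**Figure D3:**
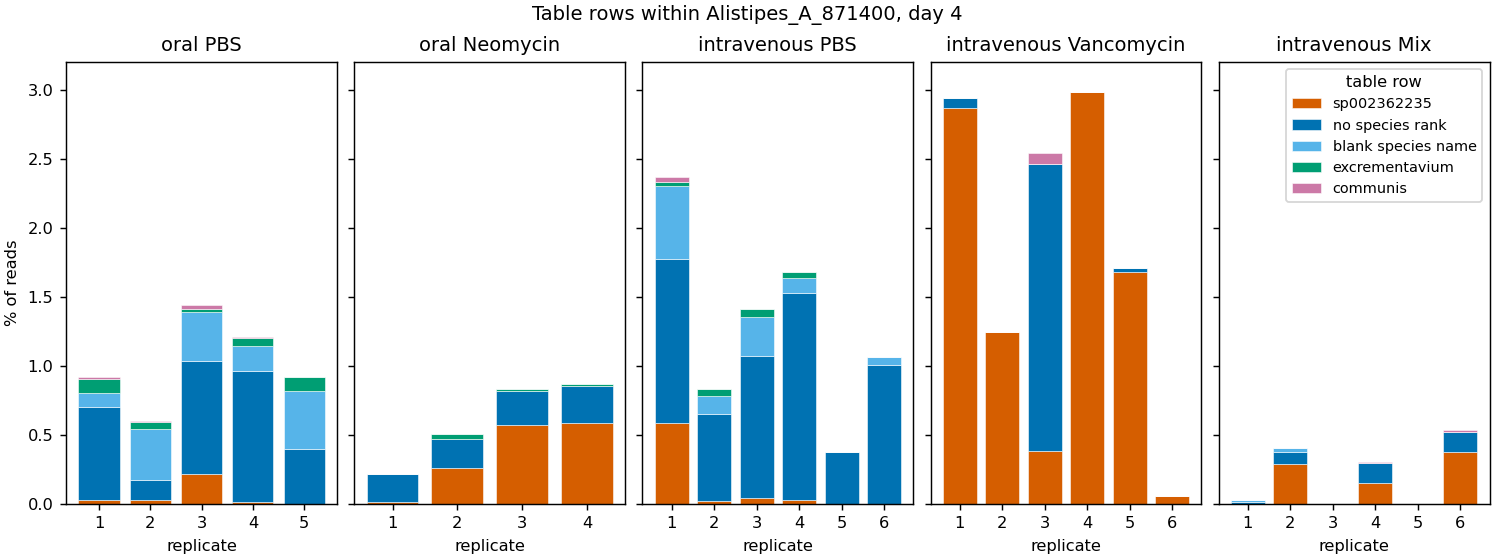
Percent of reads of the table rows within Alistipes_A_871400 in single day 4 samples, stacked to the genus total, for oral PBS and neomycin and for intravenous PBS, vancomycin and mix. Orange, sp002362235, makes up nearly the whole bar in 5 of 6 intravenous vancomycin samples, and in replicate 3 the row without a species rank makes up most of it, at 2.08% of reads.

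The same mice at day 0 carried little of that row. In 5 of the 6 mice later given intravenous vancomycin sp002362235 was listed at 0 at day 0, and in the sixth it stood at 0.0108%. The floor of 3 reads was 0.00808% to 0.192% in the 5 of these day 0 libraries with more than 1000 reads and 0.737% in the library of replicate 6, which held 407 reads. Alistipes_A_871400 as a genus was at 0% to 1.78% in them. Replicate 3, whose day 4 sample held Odoribacter_865974 and the Alistipes_A_871400 row without a species rank, listed both genera at 0 at day 0 with 1563 reads. Taken as the change from each mouse's day 0 level, the log2 difference of sp002362235 against PBS was 5.34 (limma adjusted p = 1.82e-05). Within run ok122 the difference was 3.60 (adjusted p = 0.0582) and within run SB1 5.48 (adjusted p = 0.0264), each with 3 mice against 3.

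**Figure D4:**
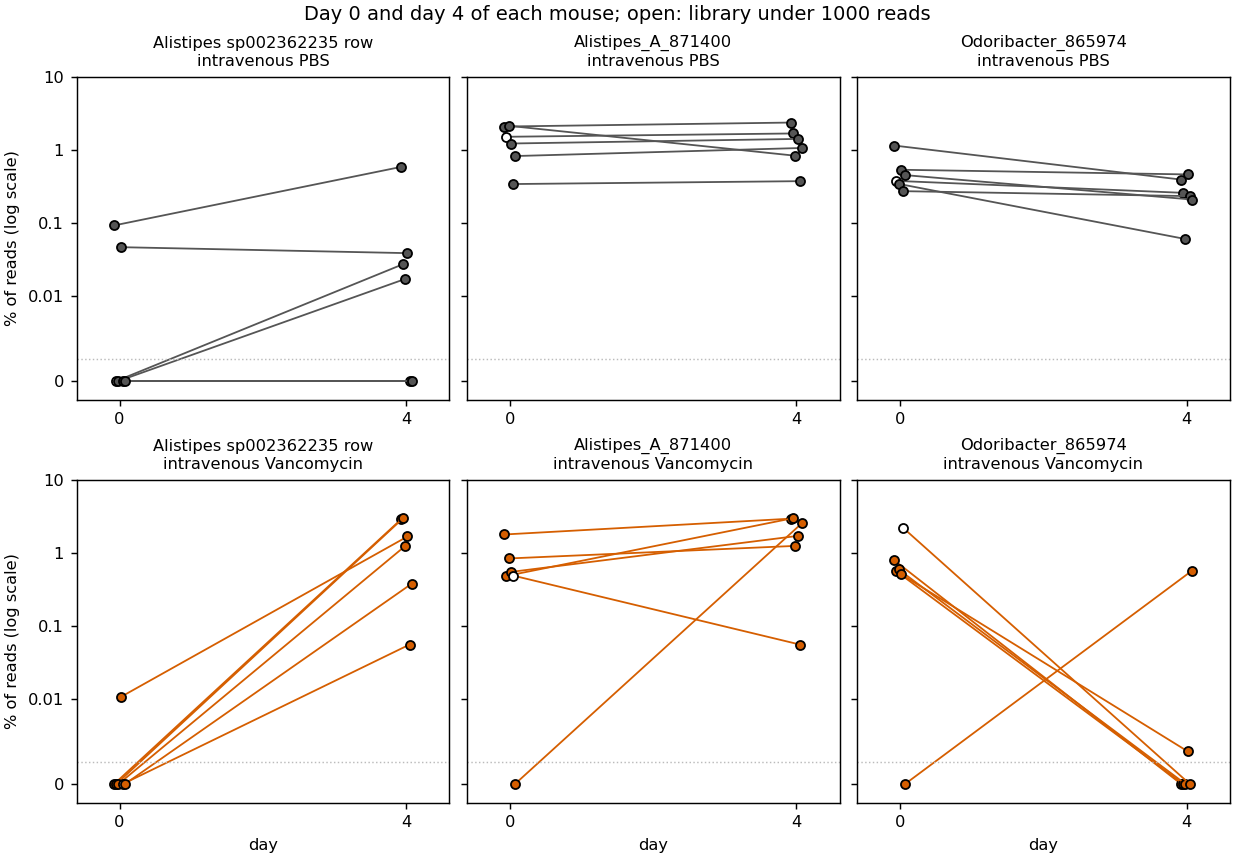
Day 0 and day 4 levels (percent of reads, log scale, with 0 below the dotted line) of sp002362235, of its genus and of Odoribacter_865974 in each intravenous PBS mouse (grey) and each intravenous vancomycin mouse (orange). Open points are libraries under 1000 reads. The day 4 level of sp002362235 exceeds both its day 0 level and the day 0 floor of 3 reads in 5 of 6 vancomycin mice and 1 of 6 PBS mice. Odoribacter_865974 is lower at day 4 in 5 of 6 vancomycin mice and in 6 of 6 PBS mice.

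Intraperitoneal vancomycin left both main genera uncalled, with mice that differed widely. Alistipes_A_871400 was at 2.94% in the sample joining replicates 1 and 5 and at 3.84%, 0%, 0.791% and 0.795% in replicates 2, 3, 4 and 6. Odoribacter_865974 was at 0.0307%, 1.95%, 0%, 1.26% and 1.62% in the same order, so 3 of 5 samples were above every PBS sample and 2 below every one. Replicate 3 listed both at 0 with 31456 reads and 83.9% Bacteroidota. The log2 differences were -1.23 ± 1.18 for Alistipes_A_871400 (limma adjusted p = 0.464) and -0.65 ± 1.11 for Odoribacter_865974 (adjusted p = 0.63). The unclassified Rikenellaceae genus was at 0 in 4 of 5 samples and fell by 2.77 ± 0.76 (limma adjusted p = 0.00382), while the exact permutation test adjusted to 0.0595. The same group was already lower at day 0, by a log2 difference of -2.45 (limma unadjusted p = 0.0474, adjusted 0.165). Against each mouse's day 0 level the difference was -0.43 ± 1.54 (limma adjusted p = 0.917).

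The dependence on route was tested directly, and a member was called only with vancomycin. The change of Alistipes_A_871400 against PBS was lower by the oral than by the intravenous route by 6.33 ± 1.57 log2 units (limma interaction, adjusted p = 0.00234, with 9.47% of genera called). Against the intraperitoneal route the difference was -4.99 ± 1.64 for Alistipes_A_871400 (adjusted p = 0.0332) and -4.43 ± 1.53 for Odoribacter_865974 (adjusted p = 0.0418), with 12.6% of genera called. For Odoribacter_865974 the oral and intravenous changes were not told apart, at a difference of -1.51 with a 95% interval from -4.42 to 1.4 (adjusted p = 0.662). The intraperitoneal and intravenous changes of the 2 genera were not told apart either, at -1.34 for Alistipes_A_871400 (adjusted p = 0.842) and 2.93 for Odoribacter_865974 (adjusted p = 0.428). The genus total of Alistipes_A_871400 covers rows that differed. Its row without a species rank was lower with vancomycin both by mouth (-5.26) and by vein (-4.355). Row sp002362235 was at -1.91 by mouth, not called (limma adjusted p = 0.0996), and at 4.54 by vein. Rows were not tested between routes. For ampicillin the oral and intravenous changes were not told apart. The differences were 1.78 for Alistipes_A_871400 (limma interaction, adjusted p = 0.826) and 0.84 for Odoribacter_865974 (adjusted p = 0.996), with 7.37% of genera called.

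**Figure D5:**
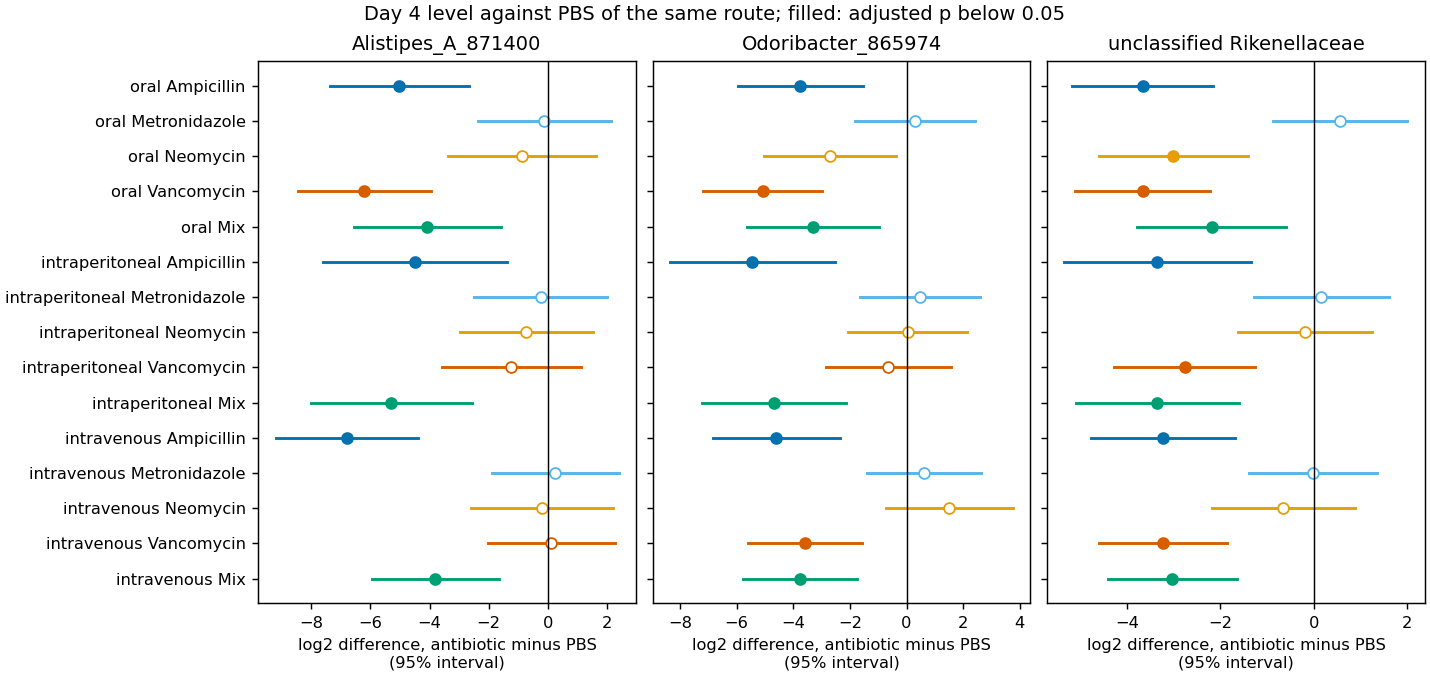
Log2 difference of each antibiotic group from PBS of the same route at day 4 for 3 member genera, with 95% intervals from limma. Filled points have an adjusted p below 0.05. Every filled point lies below 0, and Alistipes_A_871400 with vancomycin moves from -6.22 by mouth to 0.11 by vein. By vein that genus total sums rows that went in opposite directions.

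With oral neomycin the members differed in what was called. Alistipes_A_871400 as a genus was at 0.216%, 0.503%, 0.83% and 0.868% in the 4 mice, 2 of them below every PBS sample, and the log2 difference of -0.87 ± 1.26 was not called (limma adjusted p = 0.632). The unclassified Rikenellaceae genus was at 0%, 0.0310%, 0% and 0.00490% in replicates 1 to 4 against 0.0576% to 0.204% with PBS and fell by 3.01 ± 0.80 (adjusted p = 0.00616). Odoribacter_865974 was at 0%, 0.0103%, 0.301% and 0.332%, with 3 of 4 mice below every PBS sample. Its log2 difference of -2.72 ± 1.17 missed the threshold in limma (adjusted p = 0.0784), and the exact permutation p was 0.0159 (adjusted over its 15 comparisons, 0.0298). Measured against each mouse's own day 0 level, Odoribacter_865974 fell by 6.74 ± 1.94 (limma adjusted p = 0.0101, with 12.6% of genera called), though it was not called in the mice with at least 1000 reads on both days (log2 change -5.00, adjusted p = 0.16). That within-mouse value includes the day 0 gap of 3.45 between these groups, and the day 4 levels alone differ by -2.72.

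By row, 1 row of each genus was called lower. The Alistipes_A_871400 row with a blank species name was listed at 0 in 4 of 4 oral neomycin mice and at 0.102% to 0.416% in the PBS mice (limma adjusted p = 0.0006, with 22.6% of rows called). The row without a species rank held between 0.204% and 0.267%. The row sp002362235 was at 0.0115%, 0.259%, 0.568% and 0.587%, with 3 of 4 mice above every PBS sample, and its log2 difference of 2.49 ± 1.15 was not called (adjusted p = 0.0848). It held 58.9% of the reads of its genus, against 5.61% with PBS, and its ratio to the other rows missed the threshold after adjustment (exact permutation p = 0.0238, adjusted 0.0595). Odoribacter laneus fell by 3.40 ± 1.13 (adjusted p = 0.0202) to 0%, 0.0103%, 0.0288% and 0.0845%. Odoribacter splanchnicus had no read in 2 of the 4 mice and was at 0.273% and 0.247% in the other two, above every oral PBS sample, and was not called (adjusted p = 0.275). The 2 Odoribacter_865974 rows were not tested against each other.

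Limma called no member with injected neomycin. Intraperitoneally Alistipes_A_871400 ranged from 0% in the library of 70 reads through a median of 1.42% to 7.87% in replicate 5. By vein Odoribacter_865974 was at 0.508%, 0.706%, 0.515% and 1.14%, and all 4 samples exceeded all 6 PBS samples. The exact permutation p was 0.00952 (adjusted p = 0.0238), whereas limma gave a log2 difference of 1.51 ± 1.13 and an adjusted p of 0.716 with 1 genus called of 95. As a share of Bacteroidota reads Odoribacter_865974 was 0.843% on average, against 0.302% with PBS (exact permutation p = 0.00952, adjusted p = 0.0476). The oral change of Odoribacter_865974 minus the intravenous one was -4.23 ± 1.63 (limma interaction, adjusted p = 0.0703).

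Metronidazole, a drug directed at anaerobes, left every member uncalled by all 3 routes. Alistipes_A_871400 stood at 0.915% ± 0.175 (SD, n = 6) by the oral route, 1.62% ± 1.13 by the intraperitoneal and 1.45% ± 0.726 by the intravenous route, against 1.02% ± 0.319 (n = 5), 1.79% ± 1.64 (n = 5) and 1.29% ± 0.696 (n = 6) with PBS. Odoribacter_865974 stood at 0.712% ± 0.573, 0.862% ± 0.686 and 0.379% ± 0.127, against 0.450% ± 0.117, 0.517% ± 0.330 and 0.270% ± 0.142. The log2 differences lay between -0.24 and 0.25 for Alistipes_A_871400 and between 0.30 and 0.61 for Odoribacter_865974. The limma 95% intervals were wide, from -2.37 to 2.14 for Alistipes_A_871400 by mouth, and rest on a spread shared over all 18 groups. That model does not exclude a change within the interval.

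With the mix both main genera were called lower by all 3 routes. Oral mix mice held Alistipes_A_871400 at 0.0333%, 0%, 0.0974% and 0.245% in replicate 1, the 2 libraries both numbered 2, and replicate 3. It fell by 4.07 ± 1.26 on the log2 scale (limma adjusted p = 0.00956), and Odoribacter_865974, at 0%, 0%, 0.211% and 0.182%, fell by 3.30 ± 1.17 (adjusted p = 0.024). The first 3 of these libraries consisted of reagent, skin or food taxa and unassigned reads for 73.2% to 96.0%. Without the library of 556 reads the log2 difference of Alistipes_A_871400 was -3.22 (adjusted p = 0.067) and that of Odoribacter_865974 -2.58 (adjusted p = 0.11). Odoribacter_865974 also lost its call without replicate 1, at the same -2.58 (adjusted p = 0.12). With the reagent, skin and food list left out the differences were -2.04 (adjusted p = 0.29) and -2.16 (adjusted p = 0.25).

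Intraperitoneal mix mice held Alistipes_A_871400 at 0%, 0.431% and 0%, and Odoribacter_865974 at 0%, 0.0389% and 0%. Replicate 1 listed both at 0 with 41968 reads and 93.8% Bacteroidota, whereas replicate 3 had 30 reads in all. Alistipes_A_871400 fell by 5.30 ± 1.37 on the log2 scale (limma adjusted p = 0.0039) and Odoribacter_865974 by 4.68 ± 1.28 (adjusted p = 0.00592). Without replicate 3, or without replicate 1, the log2 differences were -4.39 and -4.29 and missed the threshold (adjusted p = 0.057 for each).

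Intravenous mix mice kept Alistipes_A_871400 in 4 of 6 samples, with a lowest level of 0%, a median of 0.165% and a highest of 0.532%. It fell by 3.81 ± 1.08 (limma adjusted p = 0.00288), and 4 of 6 samples were below every PBS sample. Odoribacter_865974 had a lowest level of 0%, a median of 0.00445% and a highest of 0.033%, and all 6 samples were below every PBS sample (log2 difference -3.76 ± 1.01, adjusted p = 0.00175). Row sp002362235 was listed at 0 in 3 of 6 samples. It was at 0.29%, 0.154% and 0.372% in the 3 mice that carried it, a log2 difference of 0.44 from PBS (adjusted p = 0.71), while the row without a species rank fell by 4.37 ± 1.05 (adjusted p = 0.000669). Row sp002362235 held 64.5% of the reads of the genus. Its ratio to the other rows is not compared here, since the added 0.01% sets it in the samples where the genus is listed at 0. Over table rows 42.9% were called in this comparison.

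Across the 15 comparisons, 9 of the 12 member rows could be tested. The unnamed Alistipes_A_871400 rows were each called lower in 8 comparisons, excrementavium in 7, communis in 0, and sp002362235 in 0 but higher in 1. Odoribacter laneus was called lower in 9 comparisons and Odoribacter splanchnicus in 3. The less abundant rows start closer to the added 0.01%, which limits how far they can fall on this scale. By the oral route 56.4% of all rows were called with ampicillin, 3.01% with metronidazole, 65.4% with vancomycin and 36.1% with the mix. By the intraperitoneal route the shares were 37.6% with ampicillin, 1.5% with metronidazole, 0% with neomycin, 24.8% with vancomycin and 28.6% with the mix. By vein they were 40.6% with ampicillin, 0.752% with metronidazole and 0.752% with neomycin.

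The balance between the main genera passed the threshold only in 1 comparison, oral vancomycin, where the ratio is not readable. The log2 ratio of Alistipes_A_871400 to Odoribacter_865974 was 2.22 in intravenous PBS mice and 5.90 after intravenous vancomycin (exact permutation p = 0.026, adjusted over 15 comparisons 0.0974), with 4 of 6 samples above every PBS sample. After oral vancomycin it was 0, against 1.14 with PBS (exact permutation p = 0.00216, adjusted 0.0325). Both genera were listed at 0 in 5 of these 6 samples, where the added 0.01% fixes the ratio at 0. No change of balance can be read from that comparison. After intravenous neomycin it was 0.51 (exact permutation p = 0.0238, adjusted 0.0974).

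Over the means of the 18 day 4 groups, the tested genera whose pattern was most like that of Alistipes_A_871400 were Porcincola (Spearman's correlation 0.814), Dysosmobacter (0.812) and Schaedlerella (0.785), all Clostridia of the gut, against a median of 0.612 over all tested genera. For Odoribacter_865974 they were UBA3263 (0.917), Kineothrix (0.905) and an unclassified genus of Lachnospirales (0.901), against a median of 0.745. For the unclassified Rikenellaceae genus they were TWA4 (0.945), UBA3263 (0.915) and Prevotella (0.884). Alistipes_A_871400 and Odoribacter_865974 correlated at 0.684 with each other. These group means share libraries and a common total, so the values are descriptive.

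Among the 13 other Bacteroidales genera tested, 8 of them Muribaculaceae, none was called with metronidazole by any route or with injected neomycin. With oral neomycin 3 were called higher and none lower, and Parabacteroides_B_862066 rose from 0.0453% ± 0.0218 (SD, n = 5) to 2.79% ± 2.57 (n = 4). With intravenous vancomycin 2 were higher and 8 lower, and Parabacteroides_B_862066 rose from 0.0325% ± 0.0223 (n = 6) to 31.6% ± 27.6 (n = 6) while sp002362235 rose in the same samples. With the mix no other Bacteroidales genus was higher by the oral and intraperitoneal routes, 9 and 6 were lower, and by vein 1 was higher and 7 lower.

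Butyricimonas and Alistipes_A_871404 stayed near the limit of detection. Butyricimonas had reads in 6 day 4 samples, at no more than 0.0137%. Alistipes_A_871404 was at 0.0186% ± 0.027 (SD, n = 16) in the PBS samples of day 4. It had no read in any ampicillin sample by any route, in oral vancomycin or in intravenous vancomycin. Of these, only intraperitoneal ampicillin gave a call.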

How the data were processed

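Faecal V4 16S libraries were amplified with 30 to 35 PCR cycles and read on a MiSeq, per the labels' protocols. The deposited composition table holds a signal per taxon and library that the authors scaled to a total of 100000, and the sample sheets give day and replicate number (other values, per the file headers). For read clustering and for taxonomy, tool and database are not named in the sources used here. Values were turned into percent of reads and summed by genus. Each library's depth was recovered from the smallest step between its values and used for floors (3 reads) and thinning only, so no count model was fitted. Floors cover counting error only.

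Day 4 levels, log2(percent + 0.01), were fitted with limma 3.58.1 (R 4.3.3, lmFit and eBayes, Benjamini-Hochberg over all genera) on all 18 groups. Exact permutation tests (two-sided) were adjusted over the 15 comparisons of a measure. Spearman correlations were computed with scipy 1.17.1. The rows of both families were named in full, with per genus the 3 genera of most similar group means, and for other Bacteroidales at most 2 rises and falls per comparison. Members, lists and the row test were chosen with earlier results of these data known. Of 90 mice with both days, 89 with the same route on both were used within mice. The limma and permutation steps were tested on simulated data. Alternatives are given in the closing section.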

Additional observations from a re-analysis of the deposited data

Results flagged for a closer look

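Of 30 groups of 4 to 10 samples tested for Alistipes_A_871400 and Odoribacter_865974, 6 held a sample far from the others by Dixon's criterion, where chance flags about 1 in 20. With oral vancomycin, replicate 2 held both genera at 0.0445% of reads and the other samples were at 0. Any single nonzero value is flagged in such a group, so the chance rate does not apply where most samples are at 0. Alistipes_A_871400 stood apart at 4.65% in intraperitoneal PBS replicate 2 and at 7.87% in intraperitoneal neomycin replicate 5. Odoribacter_865974 stood apart at 0.188% in oral ampicillin replicate 5, a library of 96.6% reagent, skin, food or unassigned taxa, and at 0.571% in intravenous vancomycin replicate 3.

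The change with vancomycin differed between routes by the test of the difference itself. Oral minus intravenous was -6.33 log2 units for Alistipes_A_871400, and oral minus intraperitoneal was -4.99 for Alistipes_A_871400 and -4.43 for Odoribacter_865974. The Alistipes_A_871400 row without a species rank fell with vancomycin both by mouth and by vein, while sp002362235 was called higher by vein.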

How the results depend on the processing

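All values are log2 differences from PBS of the same route unless named otherwise, each with 1 choice changed. Of the called results, 33 values, those without 1 sample included, lost their call and 4 counts moved. For Alistipes_A_871400 the call was lost with intraperitoneal ampicillin at a pseudocount of 0.001 (-5.12), within run ok122 (-2.50), with each mouse's own baseline (-5.17) and on centred log ratios (-2.62). With intraperitoneal mix it was lost at 1000 thinned reads (-4.58), with only the 2 groups fitted (-5.30), within ok122 (-4.39) and with own baselines (-4.69), and with oral mix on centred log ratios (-2.42) and without reagent, skin, food and unassigned taxa (-2.04). For Odoribacter_865974 own baselines ended the calls with intraperitoneal ampicillin (-3.77), intravenous ampicillin (-4.41), intraperitoneal mix (-3.96) and intravenous vancomycin (-3.27). Its intravenous vancomycin call was also lost at a pseudocount of 0.1 (-1.32) and within ok122 (-2.62), its intraperitoneal mix call when thinned (-3.66) and within ok122 (-4.29), and its oral ampicillin call on centred log ratios (-1.90) and without reagent taxa (-2.20). With oral mix it was lost from 1000 reads up (-2.58), thinned (-2.03), on centred log ratios (-1.66) and without reagent taxa (-2.16). Row sp002362235 with intravenous vancomycin lost its call within ok122 (3.60). The comparisons with a lower level were 5 for Odoribacter_865974 with own baselines, and for the unclassified Rikenellaceae genus 4 when thinned, 3 with own baselines and 3 on centred log ratios. The cause was not tested in any of these. Run SB1 held both groups in 1 of the 15 comparisons, so it gave no count.

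The results that reversed were all uncalled. For Alistipes_A_871400 they were intraperitoneal neomycin from 1000 reads up (0.56), thinned (0.64) and with own baselines (0.047), intraperitoneal vancomycin (1.84) and intravenous neomycin (1.93) with own baselines, intravenous metronidazole within ok122 (-0.090), intravenous vancomycin thinned (-0.26), within SB1 (-0.35) and as family sums (-0.039), and oral metronidazole on centred log ratios (0.0044). For Odoribacter_865974 they were oral metronidazole thinned (-0.062) and with own baselines (-2.25), intraperitoneal metronidazole thinned (-0.31), intraperitoneal neomycin at a pseudocount of 0.001 (-0.48), and intraperitoneal vancomycin at a pseudocount of 0.1 (0.086), with own baselines (1.65) and on centred log ratios (0.33). From 1000 reads up the share of Alistipes_A_871400 in Bacteroidota with intraperitoneal neomycin (0.58), the ratio of the genera with intravenous mix (0.39), Odoribacter_865974 at day 0 before intraperitoneal vancomycin (0.37) and its change in PBS mice (-0.012) also turned.

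Replicate numbers were not used to pair the mice. Samples with the same number correlated at 0.0162 on average and other samples at -0.00376. Of 89 samples, 24 were closest on average to those of their own number, a count that was not set against a chance level. With the replicate number as a block no call of Alistipes_A_871400 or Odoribacter_865974 changed, and Odoribacter_865974 with intraperitoneal neomycin turned to -0.042, still uncalled.

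Leaving out each sample in turn gave 6 to 7 lower comparisons for Alistipes_A_871400, 7 to 9 for Odoribacter_865974 and 9 to 10 for the unclassified Rikenellaceae genus, and 4.15 to 5.33 for sp002362235. For Alistipes_A_871400 the differences ranged from -4.78 to -3.22 with oral mix, from -6.47 to -2.50 with intraperitoneal ampicillin and from -7.12 to -4.39 with intraperitoneal mix, and for Odoribacter_865974 from -4.06 to -2.58 with oral mix and from -5.44 to -4.29 with intraperitoneal mix, each losing its call at the smaller end. Uncalled differences that crossed 0 ranged, for Alistipes_A_871400, from -0.29 to 0.022 (oral metronidazole), -0.54 to 0.34 (intraperitoneal metronidazole), -1.37 to 0.56 (intraperitoneal neomycin), -1.90 to 0.24 (intraperitoneal vancomycin), -0.060 to 0.47 (intravenous metronidazole), -0.51 to 0.019 (intravenous neomycin) and -0.19 to 0.95 (intravenous vancomycin). For Odoribacter_865974 they ranged from -0.40 to 1.14 (intraperitoneal neomycin) and -1.35 to 0.55 (intraperitoneal vancomycin). Groups of 2 to 6 and libraries of 30 to 70 reads limit what a level of 0 shows.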
